A study of Mus musculus with 3 samples.

Results

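The mitochondrial respiratory chain was represented by 101 of the 22180 genes measured. They were all genes whose symbol in the platform annotation begins with Nduf, Sdh, Uqcr or Atp5, or with Cox and a digit, on probe sets paired with a single symbol, and each gene was read from its brightest probe set. By role they were 32 subunits of complex I, 4 of complex II, 7 of complex III, 10 common subunits of complex IV, 17 of ATP synthase, 20 assembly factors, 9 isoforms or paralogues of complex IV subunits and 2 pseudogenes. RNA came from 3 cultures of mouse pluripotent stem cells, hybridised to 1 Affymetrix array each, and all 3 go back to the established mouse embryonic stem cell (mESC) line EB3 and were grown in N2B27 medium. The 2i culture was mESCs kept for 34 days in 2 µM PD0325901, a MEK inhibitor, and 2 µM CHIR99021, a GSK3 inhibitor. In Activin+PD, mESCs were kept for 64 days in 20 ng/ml Activin A and 2 µM PD0325901. The mEpiSC culture, epiblast stem cells induced from EB3 mESCs, received bFGF at 12 ng/ml with Activin A at 20 ng/ml and neither inhibitor, and how long it was kept was not stated in the sources used here.

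Complex I (NADH dehydrogenase) and complex II (succinate dehydrogenase) pass electrons to coenzyme Q, complex III hands them to cytochrome c, and complex IV (cytochrome c oxidase) hands them to oxygen, while complexes I, III and IV pump the protons that drive ATP synthase. A few subunits are encoded in mitochondrial DNA and the rest in the nucleus, and assembly factors build the complexes without staying in them. Cytochrome c oxidase also has nuclear subunits with alternative isoforms used by heart, muscle, brown fat or testis. Naive mouse embryonic stem cells are known to respire actively, and primed epiblast stem cells to rely more on glycolysis.

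Each value below is 1 array with no replicate, so no difference was tested and "higher" and "lower" describe these 3 arrays. In bulk RNA, fewer cells that express a gene and less RNA per cell cannot be told apart. Differences are given in log2 of the deposited intensity. Background was the 95th percentile of 1405 olfactory and vomeronasal receptor probe sets, at a log2 level of 5.50 on Activin+PD, 5.59 on 2i and 5.57 on mEpiSC, and a gene was compared where the brighter of both arrays exceeded it. For 498 genes, the differences given by 2 probe sets of the same gene were subtracted from each other. The standard deviation of this disagreement was divided by the square root of 2. The resulting standard deviation per probe set was 0.33 in mEpiSC minus 2i, 0.24 in Activin+PD minus 2i, and 0.30 between mEpiSC and Activin+PD. The disagreement itself was larger. This spread covers probe sets and not cultures. The labels fitted the markers of each state: 5 naive markers lay between 7.18 and 11.45 on both mESC arrays and between 5.06 and 6.21 on mEpiSC, where Fgf5 stood at 10.88. Fgf5, a primed marker, was at 5.60 in 2i and 7.08 in Activin+PD, and Otx2, another, was below background in 2i, at 7.82 in Activin+PD and at 8.37 in mEpiSC. Dnmt3b, the third primed marker, was lower in Activin+PD (8.95) than in 2i (9.54) and highest in mEpiSC (11.60).

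In mEpiSC minus 2i, the chain genes furthest apart were the complex IV isoforms Cox6b2 and Cox7a1, lower in mEpiSC, and 3 assembly factors, higher there. The 3 were Cox20, Ndufaf7 and Ndufaf6. Of the 19 assembly factors compared, 3 were at least 1.5-fold higher, against 9.5% of all genes, and the class median was 0.010. The 250 bases before the start of both isoform genes, of their common partners, of Cox20 (the assembly factor furthest apart) and of Ndufaf4 (which holds a match to the NRF1 motif) are shown 5′ to 3′ on the gene's strand, from RefSeq on GRCm38.p6. Capitals mark matches, on either strand, to motifs of factors known to act on respiratory genes or core promoters. The NRF1 motif was searched as GCGCANGCG and the motif of GABPA and other ETS factors as CCGGAAG. The YY1 motif was AAGATGGCG, that shared by ESRRB and ESRRA was CAAGGTCA, and the SP1 motif was GGGCGG. The TATA box was searched as the letters TATAAA. Cox6b2 lies at chr7:4753095-4753344 on the minus strand, Cox6b1 at chr7:30626115-30626364 on the minus strand, Cox7a1 at chr7:30183921-30184170 on the plus strand and Cox7a2 at chr9:79759854-79760103 on the minus strand. The windows of Cox20 at chr1:178318903-178319152 and Ndufaf4 at chr4:24897833-24898082 are on the plus strand.
Cox6b2: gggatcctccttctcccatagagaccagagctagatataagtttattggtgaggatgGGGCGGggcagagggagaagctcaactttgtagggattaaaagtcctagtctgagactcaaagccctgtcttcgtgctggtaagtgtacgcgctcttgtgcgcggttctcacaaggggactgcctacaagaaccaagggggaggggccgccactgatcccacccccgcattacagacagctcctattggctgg
Cox6b1: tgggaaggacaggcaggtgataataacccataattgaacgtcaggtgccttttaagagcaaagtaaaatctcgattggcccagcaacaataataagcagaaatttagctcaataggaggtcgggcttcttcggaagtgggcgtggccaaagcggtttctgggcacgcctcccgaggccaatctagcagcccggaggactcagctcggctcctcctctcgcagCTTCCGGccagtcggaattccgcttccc
Cox7a1: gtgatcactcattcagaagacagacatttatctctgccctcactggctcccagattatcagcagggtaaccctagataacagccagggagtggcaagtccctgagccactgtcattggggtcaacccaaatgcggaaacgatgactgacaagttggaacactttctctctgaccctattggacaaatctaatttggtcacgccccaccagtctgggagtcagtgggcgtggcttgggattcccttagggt
Cox7a2: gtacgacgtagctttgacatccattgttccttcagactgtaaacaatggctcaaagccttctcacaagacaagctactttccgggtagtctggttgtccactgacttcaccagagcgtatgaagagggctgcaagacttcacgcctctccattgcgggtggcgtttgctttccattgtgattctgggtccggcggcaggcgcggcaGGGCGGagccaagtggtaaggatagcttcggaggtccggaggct
Cox20: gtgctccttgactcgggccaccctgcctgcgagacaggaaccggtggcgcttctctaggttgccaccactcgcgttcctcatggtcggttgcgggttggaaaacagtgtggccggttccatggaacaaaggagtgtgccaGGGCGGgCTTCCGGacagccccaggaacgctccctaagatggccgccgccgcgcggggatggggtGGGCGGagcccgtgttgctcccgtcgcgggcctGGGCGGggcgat
Ndufaf4: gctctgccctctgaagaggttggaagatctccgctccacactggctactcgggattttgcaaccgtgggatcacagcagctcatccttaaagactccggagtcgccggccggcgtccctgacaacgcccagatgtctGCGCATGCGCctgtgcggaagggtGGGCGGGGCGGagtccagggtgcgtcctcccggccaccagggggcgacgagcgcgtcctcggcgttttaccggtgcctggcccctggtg

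The window of Cox7a1 held no match to any of the 6 motifs and 4 CpG dinucleotides. That of Cox6b2 held 1 match, to SP1 at position -193, and 8 CpG. Their partners each had 14 CpG, with an ETS match at -28 in Cox6b1 and an SP1 match at -44 in Cox7a2. Over the 88 windows of the 82 chain genes in the RefSeq table the median was 15 CpG, against 6 over all 32851 windows, so both isoform windows were poorer in CpG than the typical chain gene. Cox20, with 24 CpG, had 1 ETS match at -103 and 3 SP1 matches. In Ndufaf4 the NRF1 site reads as a match on both strands, at -113 and -112, and its 2 SP1 matches share a base.

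Windows of chain genes held the NRF1 motif in 17.0% of cases and the ETS motif in 22.7%, against 5.16% and 6.91% of all windows. The SP1 motif was in 44.3% against 32.7%, the ESRRB and ESRRA motif in 3.41% against 1.33%, and the YY1 motif in 1.14% against 0.606%. TATA boxes were in 10.2% against 12.4%. NRF1 and GABPA are the factors best known for driving nuclear respiratory genes, and their motifs are rich in CpG or GC, as the chain windows themselves are (median GC content 57.4% against 52.4%). These shares describe letters in a window and no binding.

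Nearly the whole chain was above background in every culture. Of the 101 genes, 92 were above background on all 3 arrays, which included 68 of the 70 subunits. By array, 96 of the 101 chain genes were above background on Activin+PD, 94 on 2i and 92 on mEpiSC, against 62.1%, 60.2% and 61.6% of all genes. Ndufs5 was above background on 2 arrays and Atp5j2 on 1, both dim. Among the isoforms and paralogues, Cox7b2, Cox8b and Cox8c were above background on no array, and neither were the pseudogenes Atp5c1-ps and Uqcrh-ps1. Cox6a2, the muscle isoform of Cox6a1, stood at background with 5.55 on Activin+PD, 5.61 on 2i and 5.54 on mEpiSC, and the complex II assembly factor Sdhaf3 was above it on Activin+PD only.

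Comparing primed mEpiSC with naive 2i cells, 94 chain genes had a median log2 difference of -0.08, while all 14223 genes compared had a median of 0.030. Members were lower in 54 of 94 cases, against 46.2% of all genes. Of the 94, 3 were at least 1.5-fold lower (10.2% of all genes were) and 3 at least 1.5-fold higher (9.5% of all). In either direction, 2 members were at least 2-fold apart, against 9.48% of all genes. The interquartile range over members was 0.325 on the log2 scale and that over all genes 0.472. Read against these shares, large differences were less frequent in the chain than in the genome at large, on arrays where chain genes were also brighter (median log2 level 8.04 against 6.01 in 2i). Of the 94 differences, 19 exceeded the probe set standard deviation and 6 exceeded it 2 times over. The same counts were not made over all genes, whose interquartile range was the wider. The 19 and 6 therefore do not show that such differences were more frequent in the chain.

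Activin+PD and 2i mESCs were closer still. Over 96 chain genes the median difference was -0.022, against -0.0059 over 14022 genes, and 57 members were lower (50.9% of all genes were). Cox6b2 was the only member at least 1.5-fold lower (2.56% of all genes were), 0 were at least 1.5-fold higher (4.54% of all), and 0 were at least 2-fold apart (2.2% of all). The other 95 of the 96 members lay within 1.5-fold. In mEpiSC minus Activin+PD the median was -0.056 over 96 members and 0.042 over 14383 genes, with 57 members lower against 45.2% of all. There, Cox6b2, Cox7a1, Cox5a and Cox14 were the 4 members at least 1.5-fold lower (10.9% of all were), Cox20, Ndufaf7 and Ndufaf4 the 3 at least 1.5-fold higher (8.73% of all), and Cox20 was the only member at least 2-fold apart (8.96% of all). The 3 comparisons share arrays and are not independent of each other.

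**Figure D1:**
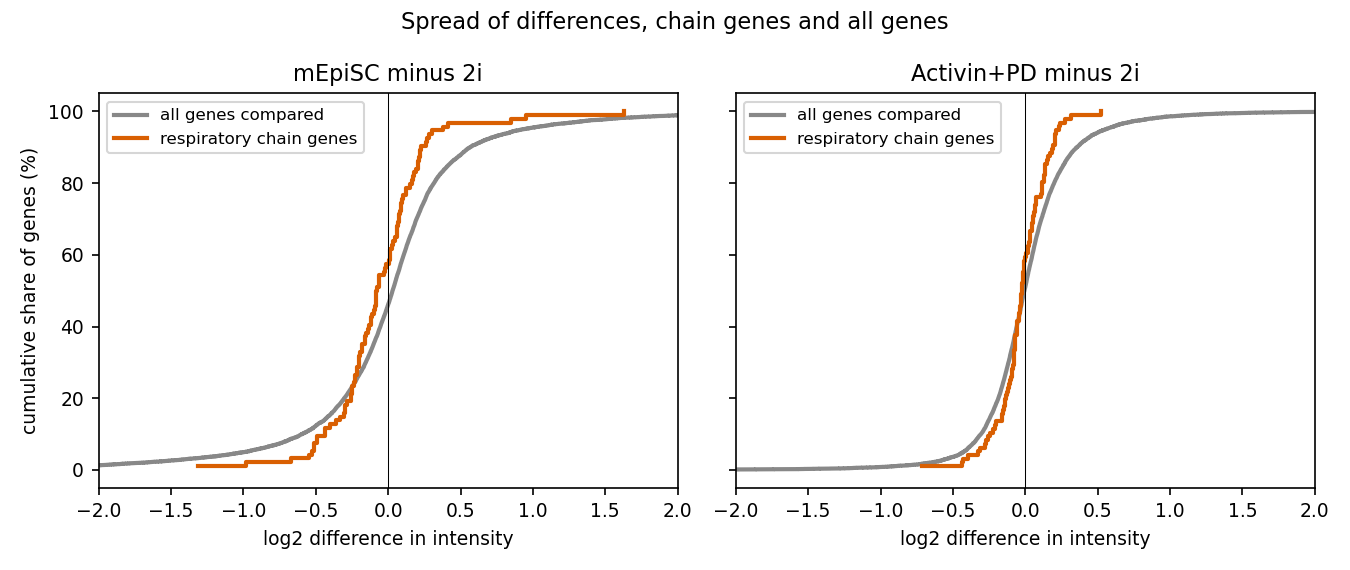
Cumulative share of genes (y axis, percent) against the log2 difference in intensity (x axis) for mEpiSC minus 2i and Activin+PD minus 2i; orange is the respiratory chain genes compared (94 and 96) and grey is all genes compared (14223 and 14022), and differences beyond 2 log2 units are outside the axes. The orange curve is steeper than the grey one in both panels, and in the left panel 54 of 94 chain genes lie below 0.

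Complex IV was the complex with the lowest median in mEpiSC minus 2i. Of its 10 common subunits, 8 were lower, against 46.2% of all genes. The 10 had a median of -0.23 and a range from -0.67 (Cox5a) to 0.17 (Cox7c). Cox5a, a subunit that joins early in assembly, stood at 10.45 on Activin+PD, 10.32 on 2i and 9.65 on mEpiSC. It was similar on both mESC arrays and lower on mEpiSC, 1.59-fold against 2i and 1.74-fold against Activin+PD. Cox6a1, the common form of the subunit that muscle replaces with Cox6a2, stood at 12.57, 12.70 and 12.19 on Activin+PD, 2i and mEpiSC, a difference of -0.51 from 2i in mEpiSC. Cox4i1, the regulatory subunit that binds ATP, was at 9.78, 9.73 and 9.43 on the same arrays. Cox6a1 and Cox4i1 thus stood lowest on mEpiSC. Ndufa4, named for complex I but a subunit of complex IV, was lower by similar amounts on both Activin arrays, at -0.31 in Activin+PD and -0.29 in mEpiSC relative to 2i. The remaining common subunits other than Cox6b1 lay between -0.18 (Cox8a) and 0.17 (Cox7c) in mEpiSC minus 2i, and Cox5b had another, dimmer probe set that was above background on mEpiSC alone. In Activin+PD minus 2i the 10 subunits had a median of -0.016, with 6 lower, against 50.9% of all genes.

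Cox6b2, an isoform of the intermembrane-space subunit Cox6b1 that is best known from testis, stood at 7.96 on Activin+PD, 8.68 on 2i and 7.36 on mEpiSC. The 2i array was highest and mEpiSC lowest, with Activin+PD between them. Relative to 2i it was 1.64-fold lower in Activin+PD (log2 difference -0.71) and 2.48-fold lower in mEpiSC (-1.31). Cox6b1 was at 9.55, 9.99 and 9.55, so both cultures with Activin A had the same lower level, at -0.43 and -0.44 relative to 2i. Both forms of the subunit were thus highest on the 2i array. Of 7 male germ cell markers matched, 6 were below background on every array. Odf1 was the exception, at 12.38 on Activin+PD, 12.32 on 2i and 12.07 on mEpiSC, and its part in the result was not tested.

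Cox7a1, the isoform of heart, skeletal muscle and brown fat, stood at 7.63 on Activin+PD, 7.71 on 2i and 6.73 on mEpiSC. Here both mESC arrays were alike and mEpiSC was apart, 1.97-fold lower than 2i (-0.98) and 1.87-fold lower than Activin+PD (-0.90). Its partner Cox7a2 was at 9.33, 9.42 and 9.43, and did not share the difference. Cox7a2l, a paralogue that links complexes III and IV into supercomplexes, was at 7.62, 7.49 and 7.77, highest on mEpiSC by 0.28 over 2i. The order of the arrays was the same for Cox6b2 and Cox7a1, with 2i highest and mEpiSC lowest. The spacing differed: Activin+PD was near 2i for Cox7a1 and well apart from both others for Cox6b2.

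Markers of tissues that use Cox7a1 were examined on the same arrays. Of 12 striated muscle markers, 11, 10 and 11 were above background on Activin+PD, 2i and mEpiSC, against 62.1%, 60.2% and 61.6% of all genes. All 12 were dim, between 5.34 and 7.05, where the median over all genes was 6.02, 6.01 and 6.05. At such levels a value above background does not by itself show that a gene is expressed. The summed level of the 12 was 9.68, 9.71 and 9.73. Of the 12, 8 were higher in mEpiSC than in 2i, as were 7651 of all 14223 genes, and 4 were lower. Among the 4 was the calcium channel gene Ryr2 at 6.20, 6.23 and 5.54, which was below background on mEpiSC. Of 5 brown fat markers, Ucp1, Adipoq and Fabp4 were below background on every array, and the list's summed level was 7.98, 8.21 and 7.80. Cidea, a lipid droplet protein on that list, was at 6.74, 7.19 and 6.10, a difference of -1.09 between mEpiSC and 2i. Plin1, the other brown fat marker above background, was at 5.74, 5.92 and 6.02, highest on mEpiSC. The part of Ryr2 and Cidea in the level of Cox7a1 was not tested. Fibroblast markers were above background for 5 of 8 genes on each array, with a summed level of 8.86, 8.84 and 9.06.

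Of the other isoforms, Cox4i2, which replaces Cox4i1 in lung and under low oxygen, was dim at 5.72 on Activin+PD, 6.15 on 2i and 6.04 on mEpiSC. Ndufa4l2, a paralogue of Ndufa4 induced by low oxygen, was at 6.08, 5.80 and 5.86. Neither was 1.5-fold apart in any comparison.

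**Figure D2:**
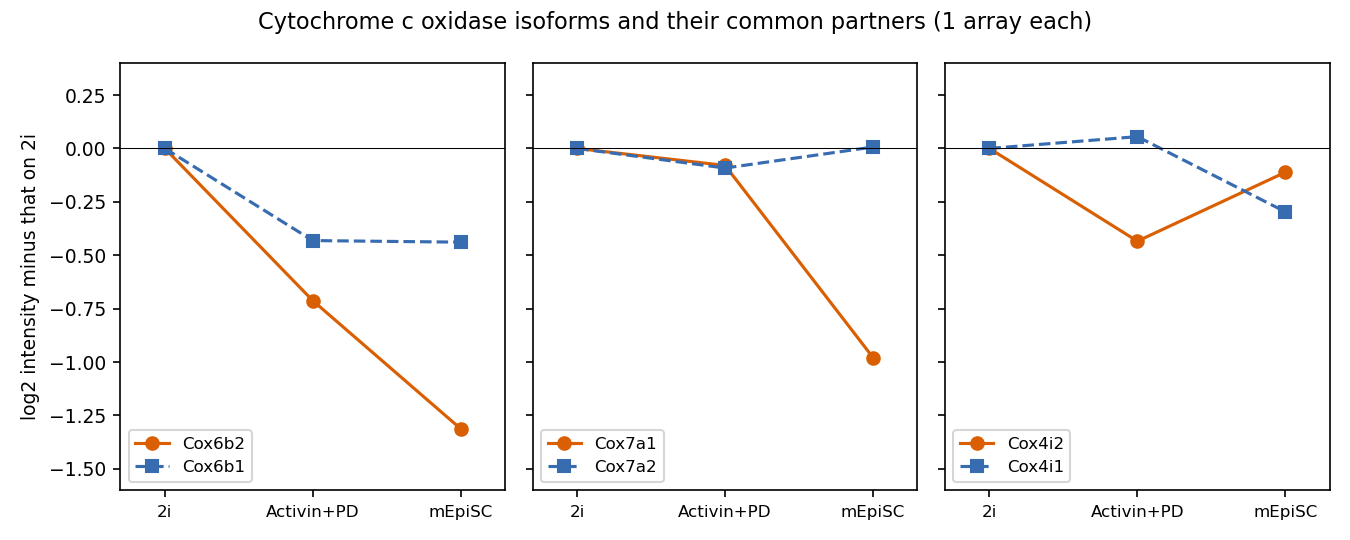
Log2 intensity minus the same gene's level on the 2i array (y axis) on the 2i, Activin+PD and mEpiSC arrays (x axis), 1 array each, for isoforms (orange circles) and their common partners (blue squares); levels of different genes are not compared. Cox6b2 reached -0.71 and -1.31, Cox7a1 -0.08 and -0.98, and Cox7a2 -0.09 and 0.01 on Activin+PD and mEpiSC.

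The 3 members at least 1.5-fold higher in mEpiSC than in 2i were assembly factors. Of the 19 assembly factors compared, 10 were higher by any amount, as were 7651 of all 14223 genes, and the median was 0.010. At least 1.5-fold, 3 of the 19 were higher and 0 lower, where 9.5% of all genes were higher and 10.2% lower. Cox20, a chaperone for the mitochondrially encoded COX2 subunit, stood at 7.80 on Activin+PD, 7.27 on 2i and 8.90 on mEpiSC. The arrays were ordered 2i, Activin+PD, mEpiSC, with mEpiSC 3.09-fold above 2i (1.63) and 2.15-fold above Activin+PD (1.10), and Activin+PD above 2i by 0.53. Cox14, which regulates synthesis of the COX1 subunit, was lowest on mEpiSC and highest on Activin+PD, at 7.62, 7.43 and 6.94 on Activin+PD, 2i and mEpiSC, 1.60-fold lower in mEpiSC than in Activin+PD (-0.68). The membrane insertase Cox18 was lower in mEpiSC than in 2i (-0.34). The other 5 complex IV assembly factors lay between -0.13 and 0.01 in mEpiSC minus 2i.

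For complex I, 6 of 8 assembly factors were higher in mEpiSC than in 2i, with a median of 0.21. Of all 14223 genes compared, 7651 were higher. Ndufaf7, a methyltransferase that acts on a core subunit, stood at 7.04 on Activin+PD, 6.94 on 2i and 7.89 on mEpiSC, 1.94-fold above 2i (0.95). Ndufaf6 was at 7.32, 7.00 and 7.85, 1.80-fold above 2i (0.85). Ndufaf4, an early assembly factor, was at 8.41, 8.69 and 9.10, so mEpiSC was highest and Activin+PD lowest, 1.61-fold apart (0.69). For these 3 factors the mEpiSC array was the highest. Ndufaf5 was lower than 2i on both other arrays, at -0.39 in Activin+PD and -0.30 in mEpiSC. Of the complex II assembly factors, 3 were compared between mEpiSC and 2i, from -0.09 (Sdhaf1, whose other probe set gave 0.05) to 0.22 (Sdhaf2).

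**Figure D3:**
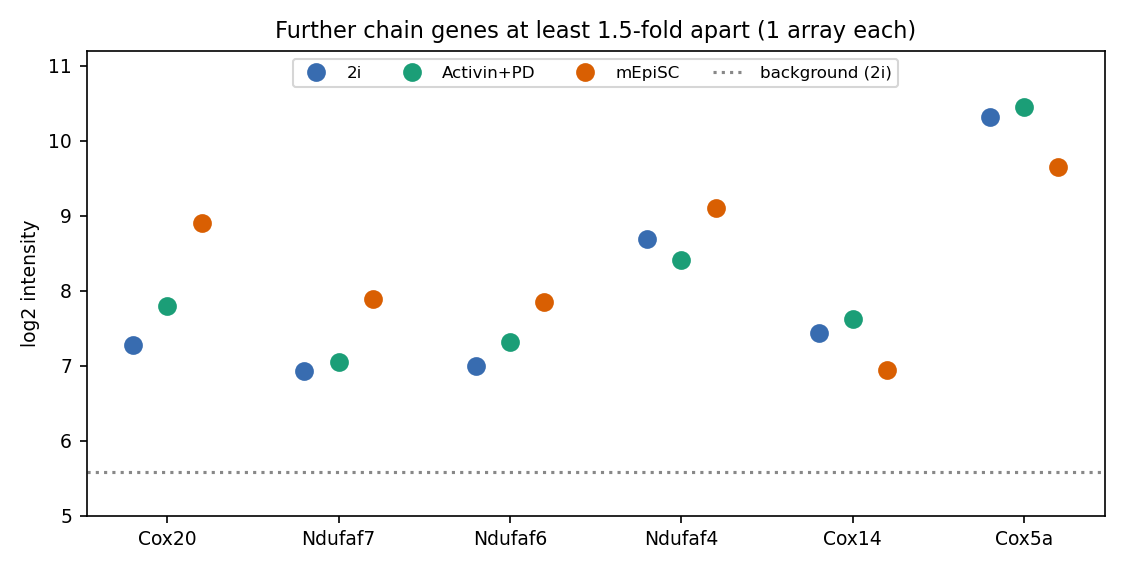
Log2 intensity (y axis) of Cox20, Ndufaf7, Ndufaf6, Ndufaf4, Cox14 and Cox5a (x axis) on the 2i (blue), Activin+PD (green) and mEpiSC (orange) arrays, 1 array each, with the 2i background of 5.59 dotted; points are compared within a gene only. The mEpiSC point is the highest for Cox20 and the Ndufaf genes and the lowest for Cox14 and Cox5a.

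The 32 complex I subunits were split between core and accessory members. Of the 6 core subunits, which form the part of the enzyme that takes electrons from NADH to coenzyme Q, 5 were higher in mEpiSC than in 2i, with a median of 0.11. Ndufv2 was the highest at 0.38 and Ndufv1, the flavin-binding subunit that pairs with it, the lowest at -0.25. Of the 26 accessory subunits, 18 were lower, with a median of -0.09. Over all 14223 genes compared, 6565 were lower in mEpiSC than in 2i and 7651 were higher. Ndufa3 stood at 9.66 on Activin+PD, 9.69 on 2i and 9.15 on mEpiSC, and Ndufa6 at 8.87, 8.88 and 8.37. Both were level between the mESC arrays and lower in mEpiSC (-0.54 and -0.51 relative to 2i), as was Ndufc1 (-0.44). Ndufab1, the mitochondrial acyl carrier protein, was the highest accessory subunit at 0.30. In Activin+PD minus 2i all 32 subunits lay between -0.16 and 0.24. Other probe sets of Ndufa11 and Ndufa12 gave mEpiSC minus 2i values of the opposite sign, 0.29 against -0.06 and 0.08 against -0.25, while that of Ndufa8 gave 0.20 as did the one used.

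Complex III showed small differences, and so did complex II apart from Sdhc. Sdhc, a membrane anchor of succinate dehydrogenase, stood at 8.91 on Activin+PD, 9.19 on 2i and 8.69 on mEpiSC, highest in 2i, with a mEpiSC difference of -0.49. The other 3 subunits lay between -0.23 (Sdha, the flavoprotein) and 0.03 (Sdhd) in mEpiSC minus 2i. The 7 complex III subunits lay between -0.25 (Uqcrc1, a core protein) and 0.21 (Uqcrq), with a median of 0.07. Of the 7, 4 were higher, as were 7651 of all 14223 genes. Uqcrfs1, the Rieske iron-sulfur protein, was at 7.27, 7.24 and 7.41 on Activin+PD, 2i and mEpiSC. Across all 3 comparisons the 7 subunits lay between -0.26 (Uqcrc2, in Activin+PD minus 2i) and 0.21.

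ATP synthase was the complex most often lower in Activin+PD. Of its 17 subunits, 15 were lower than in 2i, against 50.9% of all genes. The amounts were small: the median was -0.08 and the range -0.33 (Atp5g1) to 0.19 (Atp5h). All 5 subunits of the catalytic F1 head were among the 15, at -0.14 to -0.04, within the probe set spread of 0.24. In mEpiSC minus 2i the 16 compared were divided 8 and 8, with a median of -0.008. Atp5g1, Atp5g2 and Atp5g3 encode the same mature c-ring protein: Atp5g1 was at 6.67, 7.00 and 6.47 on Activin+PD, 2i and mEpiSC, Atp5g2 at 11.51, 11.65 and 11.47, and Atp5g3 at 9.04, 9.26 and 9.32. Relative to 2i, mEpiSC was thus lower for Atp5g1 (-0.53) and Atp5g2 (-0.18) and not for Atp5g3 (0.06). The beta subunit gene Atp5b was at 12.29, 12.36 and 12.13. Atp5d, the delta subunit of the head, was the highest at 0.22 in mEpiSC minus 2i, and its other probe set gave 0.34. In the same comparison Atp5b was the lowest of the head (-0.23) and Atp5k the highest of the membrane part (0.21), and both probe sets of Atp5e differed in sign (-0.03 and 0.13). The other probe set of Atp5h gave -0.0044 in Activin+PD minus 2i.

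**Figure D4:**
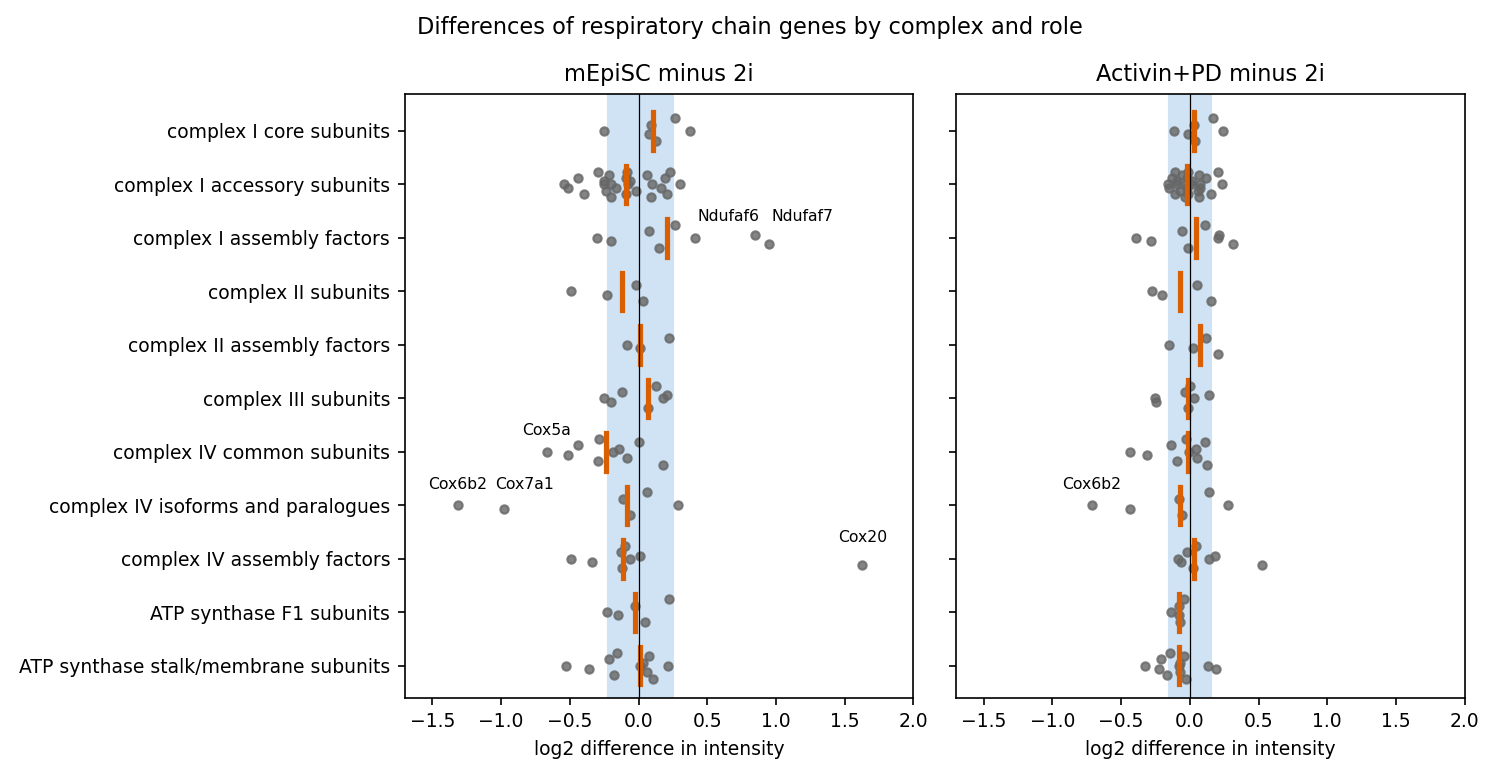
Log2 difference (x axis) of each compared chain gene (grey points) in mEpiSC minus 2i and Activin+PD minus 2i, by complex and role (y axis), with class medians as orange bars and the interquartile range of all genes compared as a blue band; vertical scatter within a class has no meaning and genes at least 1.5-fold apart are named. In mEpiSC minus 2i complex IV common subunits had a median of -0.23, and Cox20 at 1.63 and Cox6b2 at -1.31 lay furthest out.

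Subunits were lowest on the mEpiSC array more often than genes in general. Of the 70 subunits, 36 (51.4%) had their lowest level there, against 35.9% of 14539 genes above background on at least 1 array, and 32 (45.7%) had their highest level in 2i, against 28.3%. These orders include differences far smaller than the probe set spread.

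The genes around the chain were taken from lists of electron carriers, further assembly factors, and the TCA cycle with pyruvate entry. Other lists held genes of ATP and proton handling, regulators and mitochondrial ribosomal proteins. The counts of all these lists stand beside the shares over all genes in mEpiSC minus 2i, 10.2% at least 1.5-fold lower and 9.5% at least 1.5-fold higher. Of 15 electron carrier and coenzyme Q genes compared, 3 were at least 1.5-fold lower in mEpiSC than in 2i and 0 higher (median -0.14). Etfb and Etfdh, which feed electrons from fatty acid oxidation into coenzyme Q, stood at 8.50 and 8.66 on Activin+PD, 8.20 and 8.93 on 2i, and 7.21 and 8.08 on mEpiSC. Both were lowest on mEpiSC, at -0.99 (Etfb) and -0.85 (Etfdh) relative to 2i, as was Coq6, a gene of coenzyme Q synthesis (-0.62). Cycs, which encodes cytochrome c, was at 11.01, 10.95 and 11.38, higher in mEpiSC by 0.43. Of 17 genes of the TCA cycle and pyruvate entry, 2 were at least 1.5-fold lower (Idh2 and Pcx) and 1 higher. These counts were close to the shares over all genes (median -0.10). Idh2, the NADP-dependent isocitrate dehydrogenase of mitochondria, stood at 10.45, 10.36 and 8.43, lower in mEpiSC than in 2i (-1.92). Pcx, pyruvate carboxylase, was at 7.77, 7.36 and 6.74, and Idh3a, a subunit of the NAD-dependent enzyme, was higher in mEpiSC by 0.67. Of 26 further assembly factors, Surf1, of complex IV, was the 1 at least 1.5-fold apart, at 0.66. None of the 70 mitochondrial ribosomal genes was at least 1.5-fold lower, 2 were higher, and the median was 0.06. The 7 genes of ATP and proton handling that were compared lay between -0.42 (Slc25a4) and 0.14.

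Regulators of respiratory genes were mostly level. Of 18 compared between mEpiSC and 2i, Esrrb was the 1 at least 1.5-fold lower (10.2% of all genes were). Lin28a and Lin28b were the 2 at least 1.5-fold higher (9.5% of all), and the median was 0.0049. Esrrb, a nuclear receptor of the naive network, stood at 7.22 on Activin+PD, 7.18 on 2i and 5.69 on mEpiSC, just above background there. Lin28b, an RNA-binding protein, was not above background on either mESC array and stood at 7.55 on mEpiSC, higher than in 2i by at least 1.96, and Lin28a was at 9.39, 9.20 and 10.18. Nrf1 was at 8.04, 7.96 and 7.81, Gabpa at 9.79, 9.63 and 9.48, and Tfam, which packages mitochondrial DNA, at 7.72, 7.72 and 8.25. Ppargc1a, a coactivator of mitochondrial biogenesis, was below background on every array. In Activin+PD minus 2i all 17 regulators compared lay between -0.20 and 0.30.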

How the data were processed

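Total RNA of 3 cultures was labelled with the GeneChip WT PLUS kit and hybridised to Affymetrix Mouse Gene 2.0 ST arrays, 1 per group. The values the authors deposited are linear intensities per probe set (lowest 18.9 to 19.1), made with RMA per the submitters' processing notes, with GeneSpring GX 11.5 named in the design text. RMA makes array distributions alike, and whether a constant was added was not stated in the sources used here. An added constant would shrink the differences of dim genes. Log2 of each intensity was taken. Of 33793 probe sets, 23521 carried 1 symbol, 1814 carried several and 8458 were unlisted in the platform annotation; no gene was named from several. The brightest probe set stood for a gene. With 1 array per group no p-value or standard error was computed, and the arrays' number limits the precision. The comparison steps were tested on simulated data with less noise than the probe set spread. The changes put in were above the 1.5-fold cut and in bright genes only, so that test does not cover small changes or dim genes. Named were all isoforms with their partners, members at least 1.5-fold apart, the extremes of each class and other pathway genes at least 2-fold apart; further genes named were chosen after their values were seen. The members and lists were chosen with earlier results of these data known. Python 3.11.15, numpy 2.4.6 and pandas 2.3.3 were used.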

Additional observations from a re-analysis of the deposited data

How the results depend on the processing

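The median differences, the counts of members and the differences of 8 members (Cox6b2, Cox7a1, Cox5a, Cox14, Cox20, Ndufaf7, Ndufaf6 and Ndufaf4) were recomputed with 16 subtracted from every intensity, values raised to background, no filter, the 99th percentile as background, centring on array medians, quantile normalisation again, a lowess curve removed, the mean or the dimmest probe set of a gene, and subunits only. All 10 alternatives kept the sign of the member medians, which ranged from -0.10 to -0.058 for mEpiSC minus 2i, from -0.029 to -0.0068 for Activin+PD minus 2i and from -0.094 to -0.025 for mEpiSC minus Activin+PD. Each of these 8 members has 1 probe set and stood above background on every array. Their differences therefore could not change with the background level, the filter, the choice of probe set or the restriction to subunits. They could change with 16 subtracted, centring, quantile normalisation and the lowess curve, and kept their signs under each of these. Counts moved by more than 1.5 times under 2 alternatives. With 16 subtracted, members at least 2-fold apart numbered 4 rather than 2 in mEpiSC minus 2i and 2 rather than 1 in mEpiSC minus Activin+PD, and members at least 1.5-fold lower in Activin+PD minus 2i numbered 2 rather than 1. With subunits only, which leaves out assembly factors and isoforms, 1 member was at least 1.5-fold lower and 0 higher in each of both mEpiSC comparisons, 0 were lower in Activin+PD minus 2i, and 0 were at least 2-fold apart. No paired analysis was possible because each group has 1 array. Signal over background limits Cox6a2, Ndufs5, Atp5j2 and Sdhaf3, each at or below background on at least 1 array, and the dim Cox4i2.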

Other observations

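The 3 chain genes on the X chromosome, Ndufa1, Ndufb11 and Cox7b, differed by -0.21, 0.17 and -0.14 in mEpiSC minus 2i, with a median of -0.14. A further 11 probe sets that the annotation pairs with a chain gene and at least 1 other gene were left out of the comparisons. Their differences ranged from -0.48 to 0.20 in mEpiSC minus 2i, with a median of -0.07, and from -0.10 to 0.18 in Activin+PD minus 2i, with a median of 0.04.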
